A study of Solanum lycopersicum with 9 samples.

Results

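The YABBY genes are a small family of plant transcription factors, and their transcripts were followed here in tomato (Solanum lycopersicum) libraries labelled bud or flower. The members were the rows of the expression table whose ID starts with 1 of 9 listed loci, whatever the version suffix, and the listed loci include FIL, YAB2, YAB5, CRC and INO types. All 9 loci were found, as 10 gene models of the 33989 gene models in the table, because the locus Solyc07g008180 is listed with 2 models.

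A YABBY protein carries a zinc finger near one end and the YABBY domain, a helix-loop-helix resembling the first part of an HMG box, near the other. In Arabidopsis, genes of the FIL, YAB2 and YAB5 types are expressed on the lower (abaxial) side of leaves and floral organs and promote growth of the blade, CRC acts in carpels and nectaries, and INO acts in the outer integument of the ovule. In tomato, the fasciated mutation, an inversion that disturbs a neighbouring gene of the CLAVATA pathway and was first ascribed to a YABBY gene, increases the number of locules in the fruit. The RefSeq table of tomato genes (assembly SLM_r2.1) lists 9 genes with YABBY, CRC or INO symbols. None of its 41476 genes matched an ID of the expression table, so the members are given by ID and no symbol or type is attached to any of them.

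RNA-Seq was deposited for 9 libraries in 3 groups of 3. The OE libraries are OE1, OE30 and OE9, labelled as flower of the cultivar Compound raceme. The CK2 libraries are labelled as bud of the same cultivar, and the CK1 libraries as bud of the cultivar monomaker. The study compared plants that carry a WRKY-B-GFP transgene, driven in most tissues by a cauliflower mosaic virus promoter, with wild-type plants, to find genes that WRKY-B, a WRKY transcription factor, controls in axillary buds. Its methods describe axillary buds of the cultivar Ailsa Craig for both kinds of plant, and this conflict with the labels could not be settled. By the labels of tissue and cultivar, OE differs from CK2 in tissue, OE differs from CK1 in cultivar as well, and CK2 differs from CK1 in cultivar alone. OE is taken as the WRKY-B-GFP plants, from its name and its high WRKY-B level. It then differs from both other groups in the transgene as well. The transgene and the tissue therefore cannot be told apart in OE against CK2. In OE against CK1 the transgene, the tissue and the cultivar cannot be told apart. The numbers in the OE names may be lines, with 1 library each. The study's methods describe biological replicates, each pooled from several plants, for axillary buds of wild-type and WRKY-B-GFP plants, while the labels give no plant or pool for any of the 9 libraries. P-values measure the spread between these libraries. In bulk tissue, fewer cells of a type and less RNA per cell cannot be told apart.

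The values are FPKM, fragments scaled to transcript length and to the mapped fragments of the library, so levels can be ordered between genes. Such values do not show read depth, and the error given is the spread between 3 libraries. WRKY-B (Solyc02g071130.3), the check on the labels, had 74.0, 93.5 and 206 FPKM in OE1, OE30 and OE9, against 0.40, 0.40 and 0.08 FPKM in the CK2 libraries and 0.87, 0.71 and 0.55 FPKM in the CK1 libraries. Over log2 values of all gene models, the lowest correlation of a library with its own group was 0.948 to 0.975, and the highest correlation between libraries of different groups was 0.801. Summed FPKM was 615715 to 684351 in OE, 743707 to 769380 in CK2 and 749973 to 759157 in CK1. Median-ratio scaling of the libraries lowered the median log2 fold change of all gene models by 0.32 in OE against CK2 and by 0.13 in OE against CK1, and raised it in CK2 against CK1, where unscaled minus scaled was −0.22. Flower and bud marker genes and the other genes of organ polarity could not be looked up, since no table pairs their names with IDs of the expression table.

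Each comparison was 1 limma-trend fit over all gene models, on log2(FPKM + 0.1), with p-values adjusted by the Benjamini-Hochberg method over all of them. A call needed at least a 2-fold difference together with an adjusted p under 0.05. Fold changes on this scale understate the change of genes with low values. Of the 10 YABBY gene models, 9 passed the filter on low values in each comparison, and the minor model Solyc07g008180.3 passed in none. A member that has no library at the minimum in 1 of the groups passed only through the group where it is high and so had to differ. That was so for Solyc05g005240.2 in both comparisons of OE, and for Solyc01g010240.3.1 in both comparisons of CK2. There they are part of each count over the 9 members tested (calls, adjusted p and libraries that do not overlap) but are no support. No p is given for them in those comparisons. The comparisons of OE with CK2 and with CK1 share the OE libraries, and the comparison of CK2 with CK1 shares its libraries with both.

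In OE against CK2, the most abundant YABBY gene model, Solyc06g073920.3.1, fell. Solyc05g005240.2, listed at 0 in OE, and Solyc01g010240.3.1, listed at 0 in CK2, were also past the thresholds. These 3 of 9 members tested were called, while 49.0% of all 24905 gene models tested were. Of the members at the minimum in at least 1 library of each group, 1 of 7 was called, beside 42.5% of the 22033 such gene models. The 1 member called higher stands beside 25.8% of all gene models and the 2 called lower beside 23.2%, and with median-ratio scaling the calls over all gene models were 4627 higher and 6989 lower in place of 6424 higher and 5773 lower. At an adjusted p under 0.05 with any fold, 6 of 9 members passed (69.3% of all gene models), and 7 of 9 had OE and CK2 libraries that did not overlap (75.0%). The median size of the log2 fold change was 0.65 over the members and 1.06 over all gene models (0.61 and 0.91 over those at the minimum in both groups).

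In OE against CK1, Solyc07g008180.3.1 and Solyc01g091010.3 fell, and Solyc05g005240.2, listed at 0 in OE, was past the thresholds. These were again 3 of 9 members tested, with 39.2% of all 24448 gene models called. Of the members at the minimum in at least 1 library of each group, 2 of 8 were called, beside 34.4% of the 22584 such gene models. All 3 were lower in OE, where 21.8% of all gene models were called lower and 17.5% higher. An adjusted p under 0.05 at any fold was reached by 6 of 9 members (62.6% of all gene models), and the libraries of OE and CK1 did not overlap in 7 of 9 (71.6%). The median size of the log2 fold change was 0.85 over the members and 0.84 over all gene models (0.84 and 0.76 over those at the minimum in both groups). Without any 1 of the CK1 libraries, 1 member was called, or 2 where the minimum level was asked in 2 libraries.

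In CK2 against CK1, where both groups are labelled bud, Solyc05g012050.3 rose, Solyc07g008180.3.1 and Solyc12g009580.2 fell, and Solyc01g010240.3.1, listed at 0 in CK2, was past the thresholds. These 4 of 9 members compare with 27.0% of all 25268 gene models called. Of the members at the minimum in at least 1 library of each group, 3 of 8 were called, beside 20.1% of the 22951 such gene models. The 1 member called higher stands beside 13.0% of all gene models and the 3 called lower beside 14.0%, and with median-ratio scaling the calls over all gene models were 3862 higher and 2610 lower in place of 3283 higher and 3543 lower. At an adjusted p under 0.05 with any fold, 8 of 9 members passed (69.6% of all gene models), and 8 of 9 did not overlap (74.0%). With all 9 libraries in 1 fit, Solyc01g091010.3 no longer passed. The median size of the log2 fold change was 0.92 over the members and 0.57 over all gene models (0.78 and 0.50 over those at the minimum in both groups). The number called was 2 with log2(FPKM + 1), and 2 without CK1_1 or without CK1_3 (3 where the minimum level was asked in 2 libraries).

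**Figure D1:**
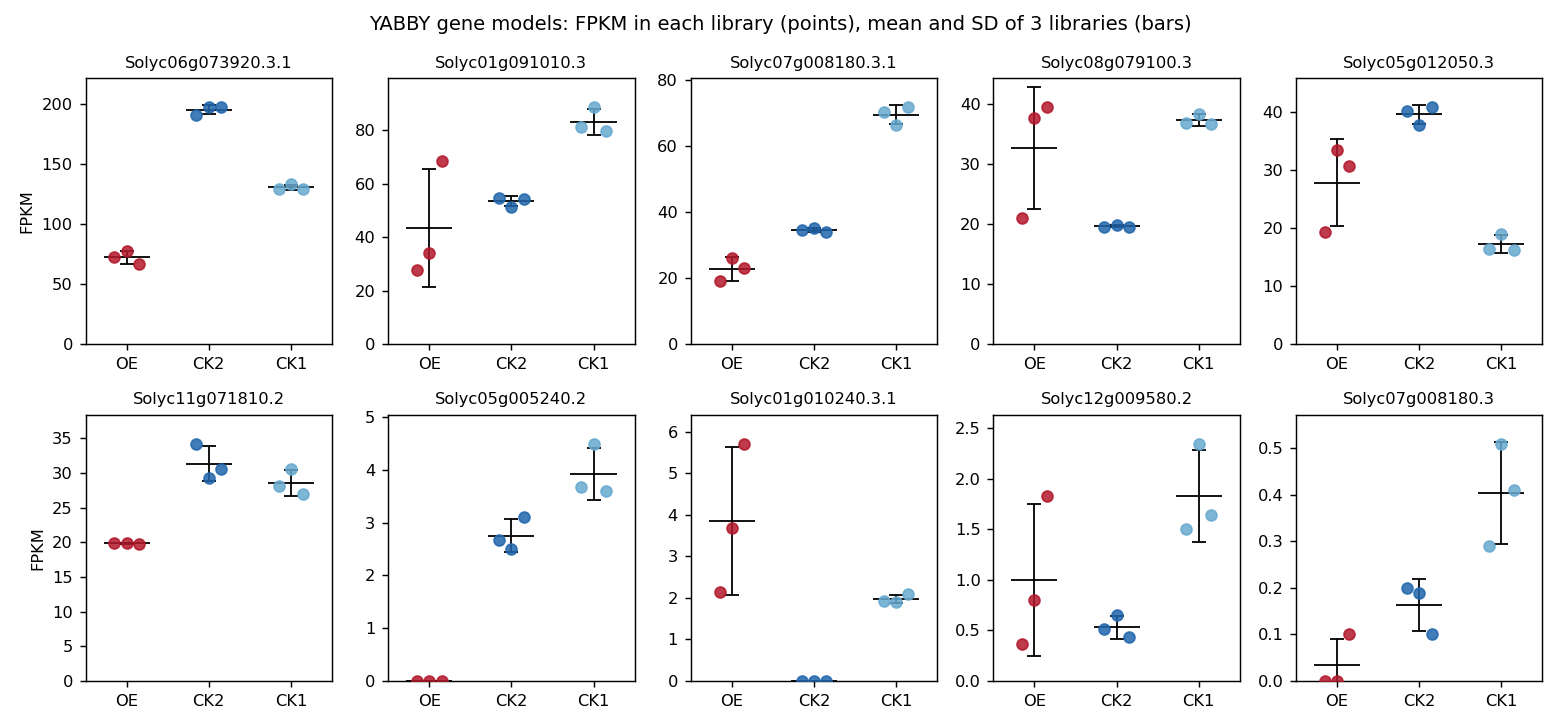
FPKM of the 10 YABBY gene models (vertical axes, each panel on its own scale from 0) in the OE, CK2 and CK1 libraries. Points are single libraries, and bars are the mean and SD of 3 libraries. Solyc06g073920.3.1 was between 66.5 and 77.5 FPKM in OE and between 129 and 197 FPKM in the control libraries, Solyc05g005240.2 was listed at 0 in every OE library, and Solyc01g010240.3.1 was listed at 0 in every CK2 library.

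Solyc06g073920.3.1 was the most abundant YABBY transcript in every group by its mean. In the table it spans 45790127 to 45800587 of chromosome 6 (build SL3.0, plus strand). It had 72.5, 77.5 and 66.5 FPKM in OE1, OE30 and OE9, against 191, 197 and 197 FPKM in CK2 and 129, 133 and 129 FPKM in CK1. No group overlapped another, with OE lowest and CK2 highest. Its mean in OE was 37.0% of that in CK2 and 55.4% of that in CK1. The log2 fold change was −1.44 in OE against CK2 (SE 0.09, limma-trend, Benjamini-Hochberg adjusted p = 3.22e-05), a call. It was −0.85 in OE against CK1 (SE 0.09, adjusted p = 0.000349) and 0.58 in CK2 against CK1 (SE 0.03, adjusted p = 3.89e-06), both short of a fold of 2.

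Solyc01g091010.3 was second by mean FPKM in every group, and its OE libraries spread more than those of any other member above 10 FPKM. It had 27.6, 34.1 and 68.5 FPKM in OE1, OE30 and OE9, against 54.7, 51.2 and 54.3 FPKM in CK2 and 81.3, 88.7 and 79.6 FPKM in CK1. OE1 and OE30 lay below all control libraries, while OE9 lay between the CK2 and the CK1 libraries. The log2 fold change in OE against CK1 was −1.05 (SE 0.33, limma-trend, adjusted p = 0.0297), a call that was lost without any single CK1 library (adjusted p of 0.0637 to 0.0772), without OE1 (−0.78, adjusted p = 0.0721) and without OE30 (−0.93, adjusted p = 0.0758). In OE against CK2 it was −0.41 (SE 0.33, adjusted p = 0.297), with a 95% interval from −1.21 to 0.38, and it was −0.80 without OE9 (adjusted p = 0.00248) and −0.14 without OE1 (adjusted p = 0.689). In CK2 against CK1 it was −0.64 (SE 0.05, adjusted p = 3.53e-05), under a fold of 2, and −0.41 after median-ratio scaling. In a fit of all 9 libraries, which takes in the spread of OE, its adjusted p was 0.0928.

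Solyc07g008180.3.1 spans 2916900 to 2921396 of chromosome 7 (SL3.0, plus strand). It had 19.0, 26.1 and 23.2 FPKM in OE1, OE30 and OE9, against 34.6, 35.2 and 33.9 FPKM in CK2 and 70.4, 66.5 and 71.9 FPKM in CK1. The order was OE, CK2, CK1 from low to high with no overlap, and the mean in OE was 32.8% of that in CK1. The log2 fold change was −1.62 in OE against CK1 (SE 0.13, limma-trend, adjusted p = 0.000147). In CK2 against CK1 it was −1.01 (SE 0.04, adjusted p = 1.13e-06), only just past a fold of 2, and it fell under that fold with median-ratio scaling (−0.78), with log2(FPKM + 1) (−0.99) and without CK1_1 (−0.997), CK1_3 (−0.98) or CK2_3 (−0.99). In OE against CK2 it was −0.61 (SE 0.13, adjusted p = 0.00578), under a fold of 2. The other model of the locus, Solyc07g008180.3, was listed between 0 and 0.51 FPKM and made up at most 0.761% of the locus in any library, so the locus followed the main model. How the authors' counting divided reads that fit both models is not known.

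Solyc08g079100.3 was lowest in CK2. It had 21.0, 37.7 and 39.6 FPKM in OE1, OE30 and OE9, against 19.6, 19.8 and 19.6 FPKM in CK2 and 36.9, 38.4 and 36.7 FPKM in CK1. OE30 and OE9 were near the CK1 libraries, and OE1 was near the CK2 libraries. The log2 fold change was −0.92 in CK2 against CK1 (SE 0.04, limma-trend, adjusted p = 1.13e-06), under a fold of 2. It was 0.68 in OE against CK2 (SE 0.25, adjusted p = 0.0463), and 0.36 with median-ratio scaling (adjusted p = 0.214). Without any 1 of the CK2 libraries, without OE30 or without OE9 the adjusted p of that comparison was 0.0933 to 0.122. Without OE1 the log2 fold change there was 0.97 (adjusted p = 0.000374). In OE against CK1 it was −0.24 (SE 0.24, adjusted p = 0.413), with a 95% interval from −0.83 to 0.35, and it turned to 0.05 without OE1 and was −0.37 without OE30 and −0.41 without OE9.

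Solyc05g012050.3 took the opposite course between the control groups. It had 19.4, 33.6 and 30.7 FPKM in OE1, OE30 and OE9, against 40.3, 37.8 and 40.9 FPKM in CK2 and 16.4, 19.1 and 16.3 FPKM in CK1. The CK2 libraries were highest and the CK1 libraries lowest, and OE1 lay just above CK1. The log2 fold change was 1.198 in CK2 against CK1 (SE 0.07, limma-trend, adjusted p = 7.52e-06), the 1 called increase of the family there. It was −0.55 in OE against CK2 (SE 0.21, adjusted p = 0.0571, and −0.86 with adjusted p = 0.0106 after median-ratio scaling). There it was −0.30 without OE1 (adjusted p = 0.0311) and −0.70 without OE30 (adjusted p = 0.0222). Without OE9 or any 1 of the CK2 libraries the adjusted p of that comparison was 0.0627 to 0.128. In OE against CK1 the log2 fold change was 0.65 (SE 0.22, adjusted p = 0.0380, and 0.52 with adjusted p = 0.0756 after that scaling). Without any 1 library other than OE1 the adjusted p of this comparison was 0.0607 to 0.103.

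Solyc11g071810.2 had 19.9, 19.9 and 19.7 FPKM in OE1, OE30 and OE9, against 34.3, 29.3 and 30.6 FPKM in CK2 and 28.1, 30.6 and 27.0 FPKM in CK1. All OE libraries lay below all control libraries, and the CK2 and CK1 libraries overlapped. The log2 fold change was −0.65 in OE against CK2 (SE 0.09, limma-trend, adjusted p = 0.000896) and −0.52 in OE against CK1 (SE 0.08, adjusted p = 0.00218), both under a fold of 2. It was 0.13 in CK2 against CK1 (SE 0.07, adjusted p = 0.146), with a 95% interval from −0.04 to 0.31, and 0.36 after median-ratio scaling (adjusted p = 0.00350) and 0.07 without CK2_1 (adjusted p = 0.366).

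**Figure D2:**
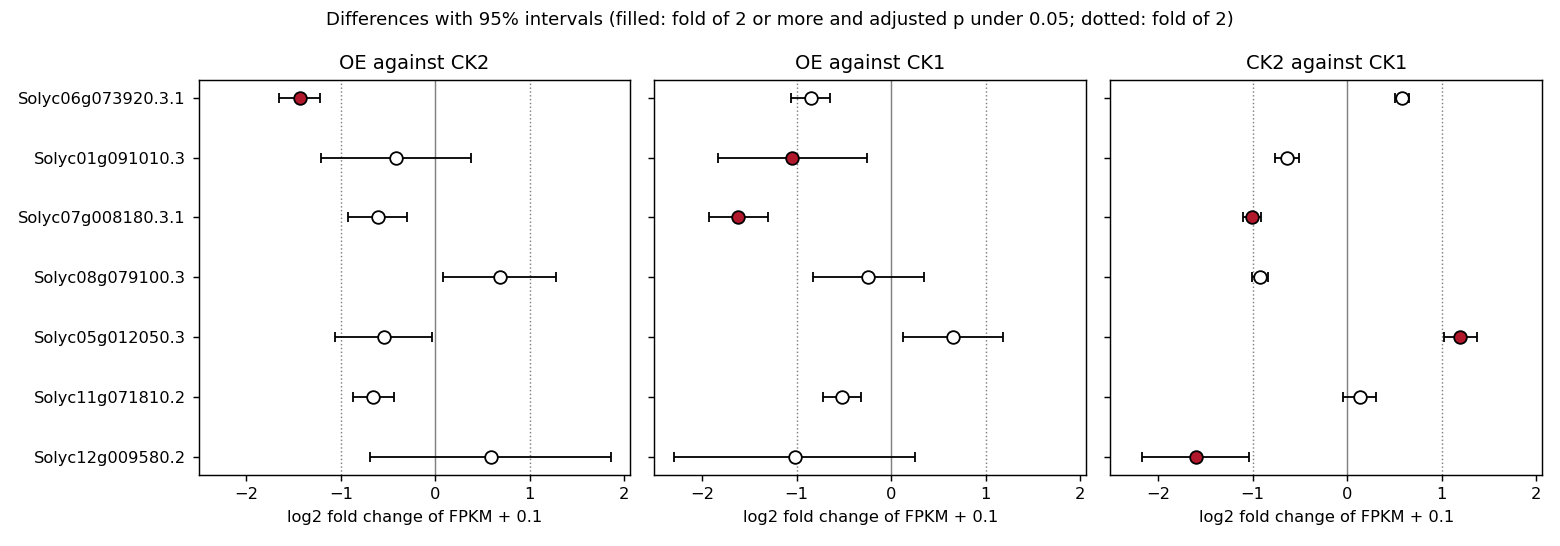
Log2 fold changes of FPKM + 0.1 (horizontal axes) with 95% intervals for 7 YABBY gene models in OE against CK2, OE against CK1 and CK2 against CK1. Filled points were called, and dotted lines mark a fold of 2. Solyc05g005240.2 and Solyc01g010240.3.1 are left out because a group is at 0 in all its libraries, and Solyc07g008180.3 was too low to test. Solyc07g008180.3.1 was to the left of 0 in all panels, while Solyc05g012050.3 lay to the right of 0 in CK2 against CK1 (1.198) and to the left in OE against CK2 (−0.55).

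The remaining members were low, and in 2 of them a whole group was listed at 0. Solyc05g005240.2 was listed at 0 in OE1, OE30 and OE9, against 2.67, 2.5 and 3.10 FPKM in CK2 and 3.67, 4.5 and 3.60 FPKM in CK1. No fold or p is given against a group at 0. Between the control groups the log2 fold change was −0.49 (SE 0.14, limma-trend, adjusted p = 0.0153, and −0.28 with adjusted p = 0.116 after median-ratio scaling). Of the 18618 gene models at 1 FPKM or more in every CK2 and CK1 library, 87 were listed at 0 in all OE libraries, and this member was among them.

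Solyc01g010240.3.1 spans 4964723 to 4968278 of chromosome 1 (SL3.0, plus strand). It had 2.14, 3.69 and 5.71 FPKM in OE1, OE30 and OE9, was listed at 0 in all CK2 libraries, and had 1.93, 1.89 and 2.09 FPKM in CK1. It was thus present in 1 bud group and in the libraries labelled flower, and not listed above 0 in the bud libraries of the other cultivar. In OE against CK1 the log2 fold change was 0.83 (SE 0.35, limma-trend, adjusted p = 0.0821). Without OE1 it was 1.18 and passed (adjusted p = 0.0100), and without OE9 it was 0.49 (adjusted p = 0.167). Of the 17671 gene models at 1 FPKM or more in every OE and CK1 library, 8 were listed at 0 in all CK2 libraries, this member among them. No member was among the 4 of 17018 gene models listed at 0 in all CK1 libraries alone.

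Solyc12g009580.2 had 0.37, 0.80 and 1.83 FPKM in OE1, OE30 and OE9, against 0.51, 0.65 and 0.43 FPKM in CK2 and 1.5, 2.35 and 1.64 FPKM in CK1. The OE libraries spanned the range from below the CK2 libraries to within the CK1 libraries. CK2 was called lower than CK1, with a log2 fold change of −1.60 (SE 0.24, limma-trend, adjusted p = 0.000776), which shrank to −0.88 with log2(FPKM + 1). In OE against CK2 it was 0.58 (SE 0.52, adjusted p = 0.354), with 1.08 without OE1 (adjusted p = 0.0643) and 0.06 without OE9 (adjusted p = 0.896). In OE against CK1 it was −1.02 (SE 0.53, adjusted p = 0.135), with −0.53 without OE1 (adjusted p = 0.310), and without OE9 it was −1.54 and passed (adjusted p = 0.0181).

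The family's summed FPKM was lower in OE than in either control group, while the control groups had nearly the same sum. The sum was 182, 233 and 256 FPKM in OE1, OE30 and OE9, against 378, 374 and 380 FPKM in CK2 and 369, 386 and 368 FPKM in CK1. This was 0.0295% to 0.0396% of all FPKM in an OE library, 0.0486% to 0.0508% in a CK2 library and 0.0486% to 0.0510% in a CK1 library. Without Solyc06g073920.3.1 the sum was 109, 156 and 189 FPKM in OE1, OE30 and OE9, against 187, 177 and 183 FPKM in CK2 and 240, 253 and 239 FPKM in CK1. OE9 was then above all CK2 libraries by a small margin. In the FPKM as given, the gap between OE and CK2 in the whole sum rested in large part on that 1 gene model. The gap between OE and CK1 was present without it. These sums are of unscaled FPKM and are described without a test. Median-ratio scaling lowered the median log2 fold change of all gene models by 0.32 in OE against CK2. In CK2 against CK1, unscaled minus scaled was −0.22. The place of OE9 above CK2 and the likeness of the CK2 and CK1 sums may therefore depend on scaling, which was not applied to the sums.

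**Figure D3:**
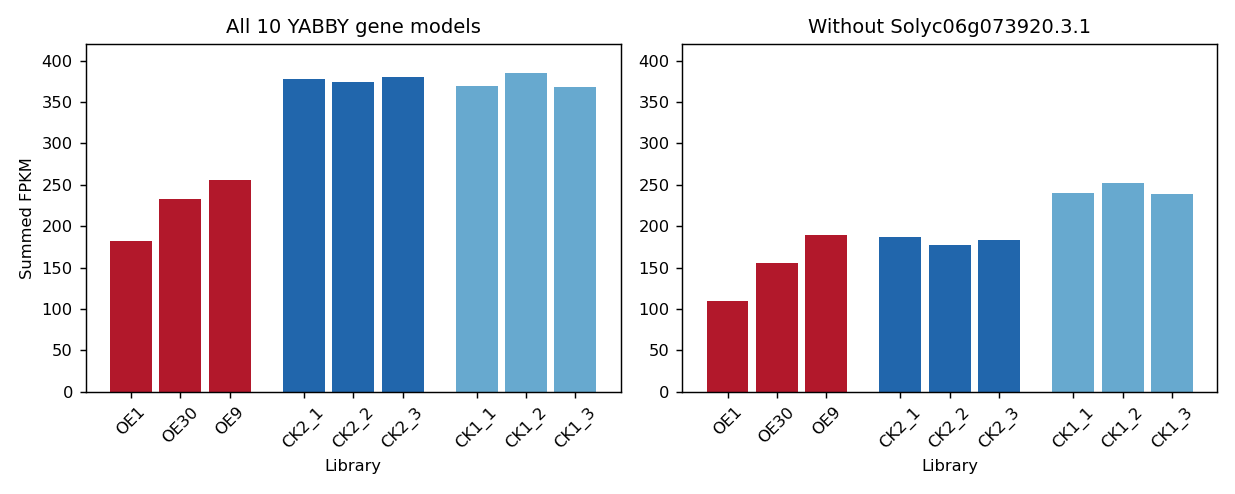
Summed FPKM (vertical axes) of all 10 YABBY gene models, left, and of the 9 without Solyc06g073920.3.1, right, with 1 bar for each OE, CK2 and CK1 library. On the left the OE bars reach 182 to 256 FPKM and the control bars 368 to 386 FPKM. On the right OE9 reaches 189 FPKM, above the CK2 bars at 177 to 187 FPKM.

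The similar sums of CK2 and CK1 were made up differently, and shares of the family sum do not depend on how libraries are scaled. Solyc06g073920.3.1 took 26.0% to 39.8% of the sum in OE, 50.5% to 52.8% in CK2 and 34.5% to 35.1% in CK1. Solyc08g079100.3 took 11.6% to 16.1% in OE, 5.16% to 5.30% in CK2 and 9.96% to 9.98% in CK1, so its share was higher in every OE library than in any control library. Solyc07g008180.3.1 took 9.08% to 11.2% in OE and 8.93% to 9.42% in CK2, which overlapped, and 17.2% to 19.5% in CK1. Solyc05g012050.3 took 10.6% to 14.4% in OE and 10.1% to 10.8% in CK2, against 4.43% to 4.95% in CK1. Solyc01g091010.3 took 14.6% to 26.8% in OE, 13.7% to 14.5% in CK2 and 21.6% to 23.0% in CK1, with OE9 above all CK1 libraries and OE1 and OE30 just above CK2. The share of Solyc11g071810.2 overlapped between all groups, at 7.71% to 10.9% in OE, 7.83% to 9.07% in CK2 and 7.32% to 7.93% in CK1.

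**Figure D4:**
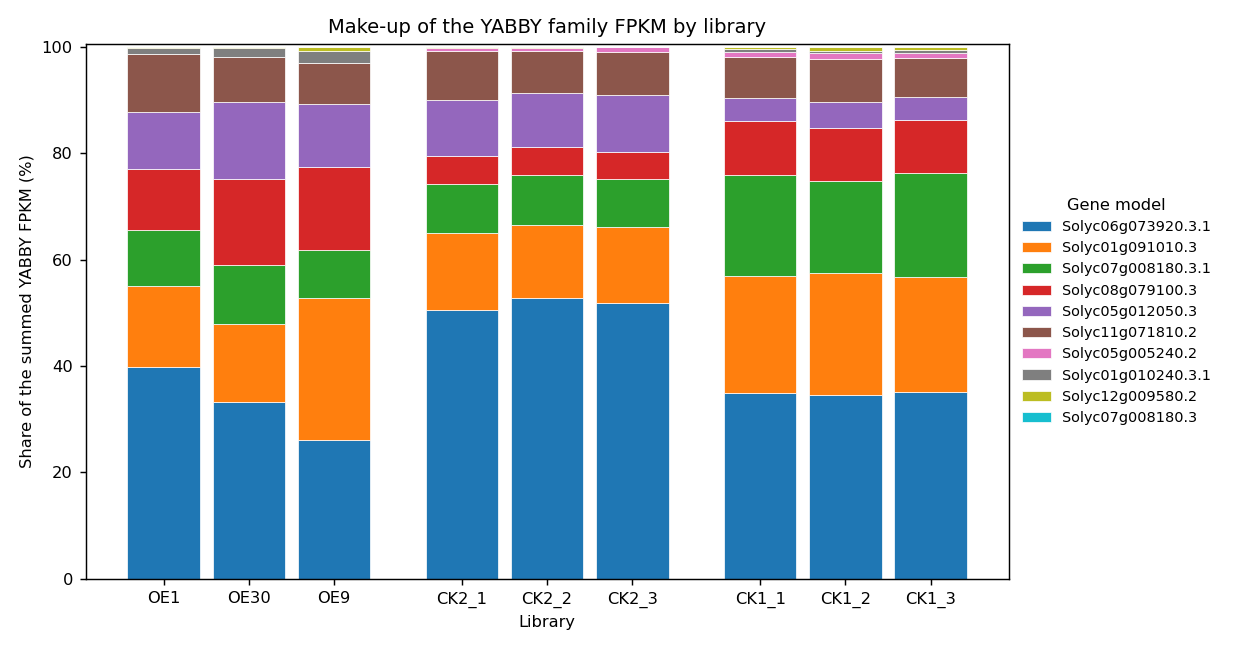
Share of the summed YABBY FPKM (vertical axis, percent) taken by each gene model in each OE, CK2 and CK1 library. Solyc06g073920.3.1 (lowest segment) took over 50% in each CK2 library and 34.5% to 35.1% in each CK1 library, and its share differed between OE1 (39.8%), OE30 (33.2%) and OE9 (26.0%).

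The order of the members by mean FPKM differed between groups below the first and second place. In OE, Solyc08g079100.3, Solyc05g012050.3, Solyc07g008180.3.1 and Solyc11g071810.2 followed. Among these first 6 members, the range of each over the OE libraries overlapped that of the next. Overlap of ranges leaves out that the members were measured in the same libraries. Within every OE library Solyc08g079100.3 was above Solyc05g012050.3, which was above Solyc07g008180.3.1. In OE9, Solyc01g091010.3 (68.5 FPKM) was above Solyc06g073920.3.1 (66.5 FPKM), the reverse of OE1 and OE30. Some members further apart did not overlap. Solyc06g073920.3.1 (66.5 FPKM at the lowest in OE) lay above Solyc08g079100.3 (39.6 FPKM at the highest) and all members after it. Solyc01g091010.3 (27.6 FPKM at the lowest) lay above Solyc07g008180.3.1 (26.1 FPKM at the highest) and Solyc11g071810.2. In CK2, Solyc05g012050.3, Solyc07g008180.3.1, Solyc11g071810.2 and Solyc08g079100.3 followed, and only Solyc07g008180.3.1 and Solyc11g071810.2 overlapped. In CK1, Solyc07g008180.3.1, Solyc08g079100.3, Solyc11g071810.2 and Solyc05g012050.3 followed with no overlap. Solyc06g073920.3.1 stood above 94.7% to 98.2% of all gene models of its library in the 9 libraries, and all 6 of these members were at 10 FPKM or more in every library.

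Spread within groups was larger in OE, for the family as for other gene models. For members at a mean of 1 FPKM or more, the median coefficient of variation was 29.1% in OE, over 8 members. It was 3.59% over 7 members in CK2 and 5.84% over 9 members in CK1. Over all gene models at that level it was 19.4%, 7.27% and 6.04% in OE, CK2 and CK1. The OE members include the low Solyc12g009580.2 (75.0%) and Solyc01g010240.3.1 (46.5%), which are not among those of CK2. Solyc05g005240.2 (11.2% in CK2) is not among those of OE. The medians of the members are thus over different sets. Solyc11g071810.2 stood at the other end in OE, with a coefficient of variation of 0.526%, lower than in all but 0.0722% of gene models, while in CK2 (8.22%) and CK1 (6.45%) it was near the median of all.

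Likeness between members was described by Pearson's r of log2(FPKM + 0.1) over the 9 libraries, which share their group structure, so r mostly follows the group means. Solyc06g073920.3.1 and Solyc11g071810.2 were most alike (r = 0.94), and Solyc06g073920.3.1 and Solyc01g010240.3.1 were least alike (r = −0.88). For Solyc06g073920.3.1 and Solyc11g071810.2, r of the deviations from the group means was −0.01, so their likeness lay between groups and not within them. Solyc05g012050.3 and Solyc08g079100.3 showed the reverse, with r = −0.55 over the libraries and 0.94 for the deviations from the group means, where both were lowest in OE1 among the OE libraries.

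**Figure D5:**
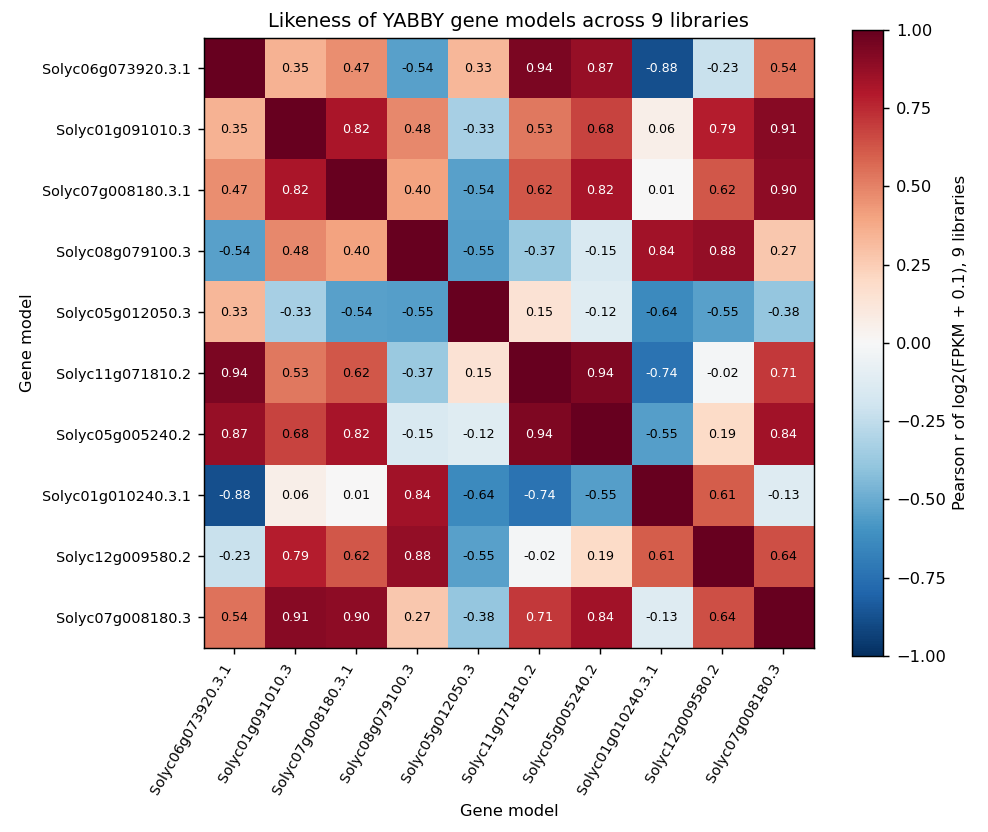
Pearson's r of log2(FPKM + 0.1) over 9 libraries between each pair of YABBY gene models (both axes), on a colour scale from −1 to 1. Solyc06g073920.3.1 and Solyc11g071810.2 have r = 0.94, and Solyc01g010240.3.1 and Solyc06g073920.3.1 have r = −0.88.

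Outside the family, the gene model most like Solyc06g073920.3.1 among 24282 candidates was Solyc03g079970.1.1 (r = 0.998 over the 9 libraries), with 0.08, 0.11 and 0.03 FPKM in OE1, OE30 and OE9, against 14.0, 13.3 and 12.6 FPKM in CK2 and 2.35, 2.56 and 2.55 FPKM in CK1. It followed the same order of groups over a far wider range. Its OE values were near or below the 0.1 FPKM added before taking logs, so its r depends in part on that addition. Of the 24282 candidates, 953 had r over 0.95 with Solyc06g073920.3.1. The one most like Solyc01g091010.3 was Solyc06g068550.3 (r = 0.986), with 0.11, 0.14 and 2.02 FPKM in OE1, OE30 and OE9, against 1.63, 1.16 and 1.07 FPKM in CK2 and 4.33, 4.64 and 4.38 FPKM in CK1. It shared the high value in OE9, and its OE1 and OE30 values were also near the added 0.1 FPKM. Of the candidates, 58 had r over 0.95 with Solyc01g091010.3.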

How the data were processed

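For every library the authors deposited 1 FPKM value a gene model, with 2 decimals, and these FPKM values were used as given. RSEM 1.2.12, DESeq2 1.4.5, Bowtie2 2.2.5 and HISAT2 2.0.4 appear in the submitters' processing notes with no role given. Positions in the table are on build SL3.0, and whether counting used strand is not stated in those sources. The table's 27 columns of the authors' own comparisons (log2 ratios, p-values and q-values), 6 of whose 9 comparisons set a single OE library against a control group, were not used.

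limma-trend (limma 3.58.1, R 4.3.3) was fitted to log2(FPKM + 0.1) in the 6 libraries compared, with Benjamini-Hochberg adjustment over every gene model tested. To be tested, a gene model had to reach 0.5 FPKM in 3 of these libraries. Calls needed a 2-fold difference with adjusted p under 0.05. Descriptions used Python 3.11.15 with pandas 2.3.3. The test was checked on simulated data in which few gene models changed and both groups had the same spread. That check does not cover the larger spread of OE or the many gene models called here. With 3 libraries against 3, an exact permutation test cannot go below p = 0.1, so none is given.

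Named were every member, WRKY-B and, for the 2 members with the highest mean, the outside gene model with the highest r among those that reached 1 FPKM in 3 libraries. A list of other organ polarity genes could not be filled. Members and lists were chosen with earlier results of these data known. Alternatives were another pseudocount, no filter, median-ratio scaling, all libraries in 1 fit, summed gene models of a locus, a replicate block and leaving out each library.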

Additional observations from a re-analysis of the deposited data

How the results depend on the processing

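Called YABBY members in OE against CK2 numbered 3 under every alternative that kept all libraries, in OE against CK1 3 or, without a filter, 4, and in CK2 against CK1 4, 3 with median-ratio scaling and 2 with log2(FPKM + 1), where Solyc07g008180.3.1 and Solyc12g009580.2 dropped under a fold of 2. Leaving out 1 library at a time gave 2 in each case in OE against CK2, 1 to 4 in OE against CK1 (1 without any of the CK1 libraries) and 2 to 4 in CK2 against CK1 (2 without CK1_1 or CK1_3). With 5 libraries, a gene model at 0 in one group can no longer reach the minimum in 3 libraries when a library of the other group is left out. With the minimum asked in 2 libraries, an alternative chosen after seeing the data, the counts were 3, 2 to 4 and 3 to 4. Only Solyc08g079100.3 in OE against CK1 changed direction, between −0.41 and 0.0479 over the libraries left out, the 0.0479 being without OE1. The replicate block in CK2 against CK1 called 4 members and 6822 gene models (6826 without it). Same-numbered libraries did not deviate together (r of −0.0161, 0.0115 and −0.000898), so no pairing by number was visible in the values. This cannot show whether same-numbered libraries were handled together. Counts of all gene models called stayed within 1.5 times under every alternative. FPKM without counts give no counting error, which limits what can be said of the members under 5 FPKM.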

Other observations

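Within OE, the level of WRKY-B was lowest in OE1 and highest in OE9. Of the 8 YABBY gene models at a mean of 1 FPKM or more in OE, 4 had the OE libraries in the same order (Solyc01g010240.3.1, Solyc01g091010.3, Solyc08g079100.3 and Solyc12g009580.2), and 13.9% of all 20786 gene models at that level did. With 3 libraries this is a description, chosen after the values were seen, and it was not tested. These 4 members varied together within groups (r of the deviations from the group means of 0.73 to 0.91), so they are not 4 separate observations. The family's summed FPKM followed that order as well, and the share of Solyc06g073920.3.1 ran the opposite way. Neither is separate, since the sum includes the 4 members and is the denominator of the share. The FPKM of Solyc06g073920.3.1 itself was 72.5, 77.5 and 66.5 in OE1, OE30 and OE9.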
